A study of Rattus norvegicus with 12 samples.

Results

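The bone morphogenetic proteins (BMPs), the activin beta subunits and the secreted proteins that bind them were examined in 2 rat models of renal fibrosis (RF), an adenine model and a unilateral ureteral obstruction (UUO) model. The 9 genes were Bmp2, Bmp4, Bmp6, Bmp7, Inhba, Inhbb, Grem1, Fst and Nog. They were chosen by gene symbol, and each was listed once in both deposited tables, as 9 of the 22132 entries that the table of the adenine model holds and 9 of the 32623 entries that the table of the UUO model holds.

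BMPs are secreted dimers of the TGF-beta superfamily that signal through type I and type II serine/threonine kinase receptors to Smad1, Smad5 and Smad9, whereas activins signal mainly to Smad2 and Smad3. In the kidney, Bmp7 is made by tubular epithelium and podocytes, is required for nephron formation and is known for opposing fibrosis in injury models. Gremlin 1 (Grem1) and noggin (Nog) bind BMPs and keep them from their receptors, and follistatin (Fst) does the same mainly for activins.

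All rats were wild-type male SD rats, 8 weeks old when purchased, and kidney RNA from 3 different rats was sequenced in each group, drawn at random from 10 rats per group. Adenine, which forms crystals in the renal tubules, was given by daily gavage for 3 weeks, and the control rats received saline for the same 3 weeks. In the UUO group the left ureter was tied, and in the sham group the same operation was done without ligation, with kidneys collected 2 weeks later. Values are FPKM, fragments scaled to transcript length and to library size, so levels of different genes may be compared. The tables were normalized separately, so changes are given within each table only.

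The sum of FPKM was 564972 to 582725 in the control libraries and 468389 to 487770 in the adenine libraries, and 619664 to 630244 in the sham libraries and 528811 to 539011 in the UUO libraries. Kidney markers were present in all 12 libraries, with the endocytic receptor Lrp2 between 6.61 and 175 FPKM and the water channel Aqp2 between 4.86 and 80.1 FPKM. All 6 fibroblast and myofibroblast markers and all 4 macrophage markers rose in both models. The summed fibroblast and myofibroblast level went from 56.0 to 71.1 FPKM in control kidneys to 441 to 555 FPKM after adenine, and from 43.9 to 82.6 FPKM in sham kidneys to 663 to 1849 FPKM after UUO. The summed macrophage level was 14.9 to 17.9 FPKM in control kidneys and 424 to 711 FPKM after adenine, and 16.0 to 24.2 FPKM in sham kidneys and 177 to 219 FPKM after UUO. Urothelial markers (Upk1b, Upk3a, Upk2 and Krt20) summed to 0.206 to 1.08 FPKM in sham kidneys and 59.6 to 105 FPKM after UUO, where all 3 tested rose, and to 0.356 to 3.45 FPKM in control kidneys and 0.503 to 1.94 FPKM after adenine, with Krt20 at the lowest listed value in all 3 sham libraries. The part of these cells in the changes below was not tested, and in whole tissue fewer cells of a type and less RNA per cell cannot be told apart.

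In undiseased kidneys, Bmp4 and Bmp7 were the most abundant of the 9 transcripts. In the control group Bmp4 was at 24.7 ± 4.11 FPKM (SD, n = 3) and Bmp7 at 20.7 ± 2.36 FPKM, and their ranges overlapped. In the sham group Bmp7 was at 32.9 ± 1.18 FPKM, above Bmp4 at 21.9 ± 8.18 FPKM, with no overlap. Grem1 and Bmp6 followed, without overlap between them, at 6.27 ± 2.18 and 1.57 ± 0.443 FPKM in the control group and at 6.88 ± 3.09 and 2.39 ± 1.12 FPKM in the sham group. Bmp2, Inhbb, Nog and Inhba had means below 1 FPKM in both groups, and neighbours in the order overlapped, except for Nog (0.0638 to 0.370 FPKM) and Inhba (0.0001 to 0.0496 FPKM) in the sham group. Fst had no settled place in this order, since its level ran from 0.368 to 20.9 FPKM across the control libraries. In the diseased kidneys the order was different, with Bmp7 first in both models, at 23.4 ± 6.47 FPKM after adenine and 36.8 ± 5.77 FPKM after obstruction. Fst came next, and its range overlapped those of Inhbb and Bmp6 in the UUO group but not those of the genes below it in the adenine group, where Inhbb, Grem1, Bmp6 and Bmp4 overlapped from neighbour to neighbour. Bmp4 stood lower, at 4.43 ± 0.233 FPKM after adenine and 8.02 ± 0.269 FPKM after UUO, where its range of 7.76 to 8.30 FPKM lay apart from those of Bmp6 above it and Bmp2 below it.

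**Figure D1:**
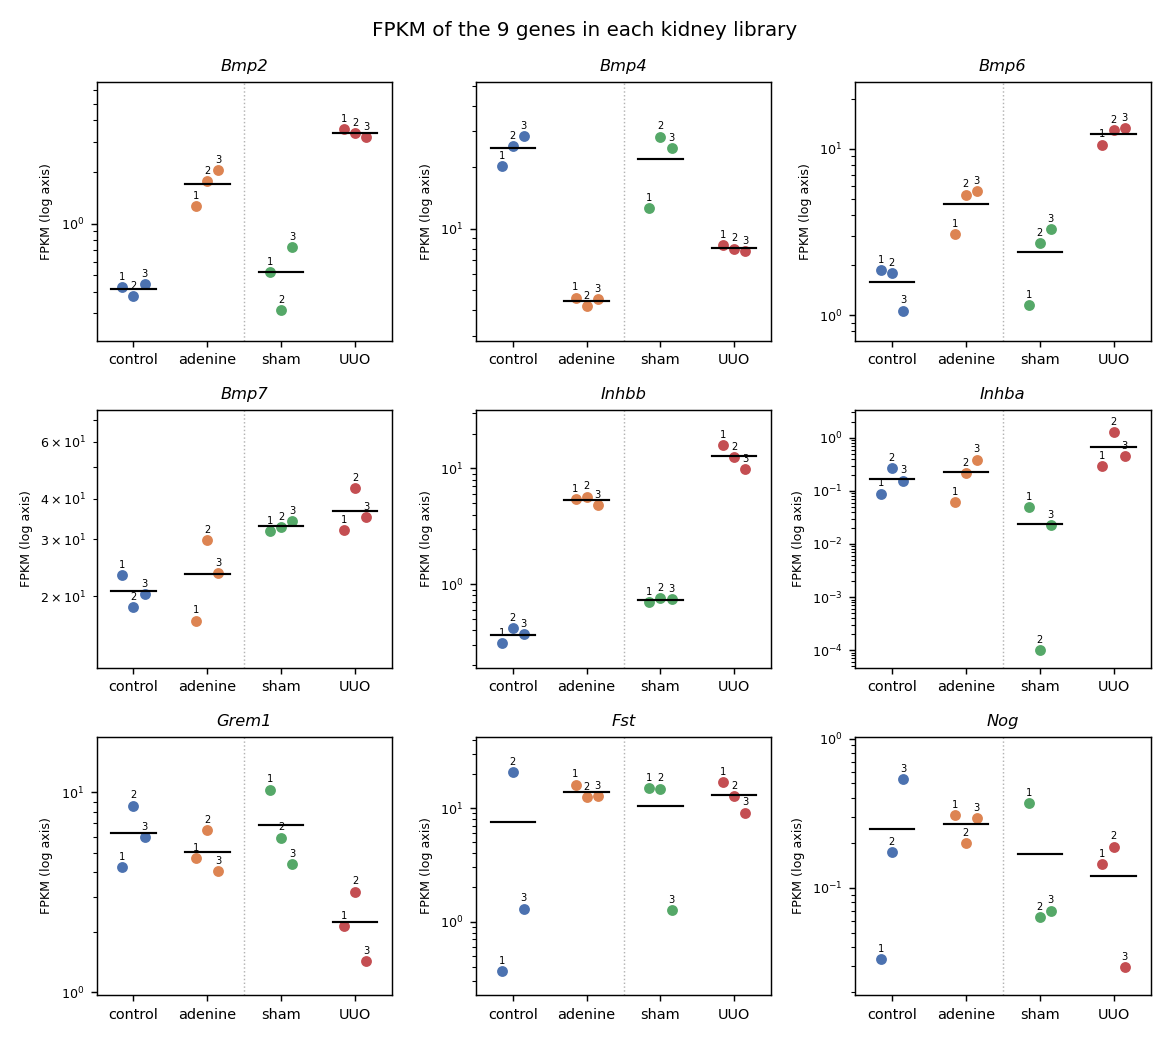
FPKM of each of the 9 genes in the 12 kidney libraries on log axes (each panel has its own scale), with points numbered by replicate and a bar at the mean of each group; the dotted line parts the separately normalized tables. Bmp2, Bmp6 and Inhbb lie higher and Bmp4 lower in every diseased library than in every library of the matching undiseased group, while Bmp7 and Fst overlap in the UUO model and in the adenine model.

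Of the 9 genes, 7 reached the minimum level for testing in each table (0.5 FPKM reached by 3 or more of 6 libraries), and Inhba and Nog did not. A gene was called as changed at a Benjamini-Hochberg adjusted p under 0.05 in limma, and as a differentially expressed gene (DEG) when the absolute log2 fold change was also at least 2. In the adenine model 3 members rose (Bmp2, Bmp6, Inhbb), 1 fell (Bmp4) and 3 did not pass the test (Bmp7, Grem1, Fst). Over all 15029 entries tested in that table, 39.6% rose and 19.9% fell by the same call. The DEGs were Inhbb, which rose, and Bmp4, which fell, against 10.7% of all entries called higher and 5.03% called lower. In the UUO model 3 members rose (Bmp2, Bmp6, Inhbb), 2 fell (Bmp4, Grem1) and 2 did not pass (Bmp7, Fst), where 56.1% of all 15043 entries rose and 14.4% fell. The DEGs there were Bmp2, Bmp6 and Inhbb, all higher, against 13.2% of entries called higher, and no member was among the 4.21% called lower. The DEG calls of Bmp2 and Bmp6 depended on the setting: Bmp2 was at 1.53 with a pseudocount of 1, Bmp6 at 1.99 without sham replicate 1, and under median-of-ratios scaling both were below 2 (Bmp6 at 1.85) while Grem1 reached -2.12. After adenine Bmp2 became a DEG at 2.13 when FPKM were rescaled to equal sums. The median log2 fold change of the tested members was 1.50 after adenine and 0.91 after UUO, beside medians of 0.30 and 0.62 over all tested entries. Bmp2 and Inhbb passed the filter in the first table only through the adenine group, so their place among the tested genes is tied to that group being high.

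**Figure D2:**
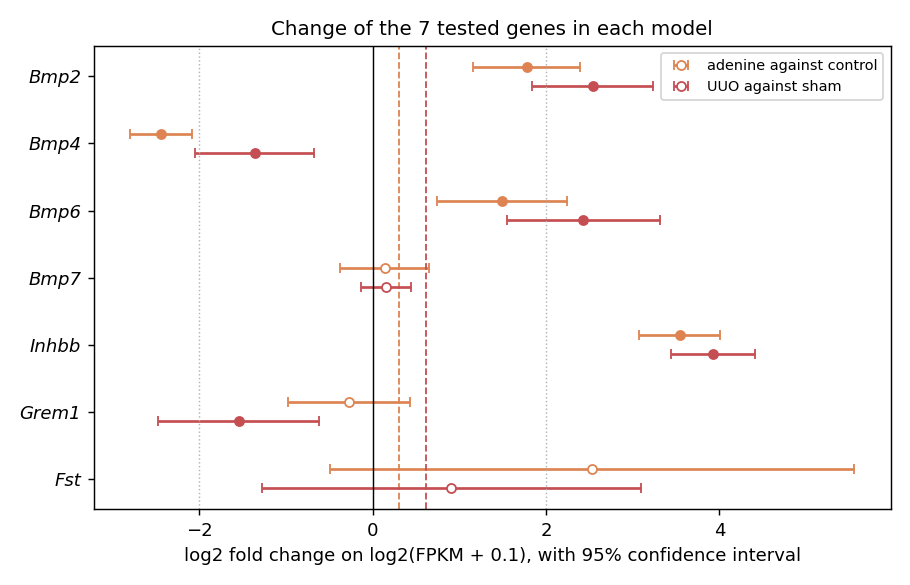
Log2 fold changes of the 7 tested genes in the adenine model (orange) and the UUO model (red), on the log2(FPKM + 0.1) scale, with 95% confidence intervals; filled points have an adjusted p under 0.05, dashed lines mark the medians over all tested entries (0.30 and 0.62) and dotted lines the fold change threshold of 2. Inhbb sits farthest to the right in both models, Bmp4 is the farthest left in the adenine model, and the intervals of Fst are the widest.

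Among the BMP ligands, Bmp4 fell in both models. Bmp4 is made mainly by mesenchymal cells around the ducts and tubules, and it guides branching of the ureteric bud during development. Its FPKM in the control libraries was 20.3, 25.5 and 28.4, and in the adenine libraries 4.60, 4.17 and 4.53. The adenine values lay close together and all below the control values. The log2 fold change was -2.44 (SE 0.15, adjusted p = 5.46e-05), a 5.58-fold lower mean. In the sham libraries Bmp4 was at 12.7, 28.3 and 24.7 FPKM, and in the UUO libraries at 8.30, 8.00 and 7.76 FPKM. The UUO libraries again agreed closely and did not overlap the sham libraries, of which replicate 1 was well below the other two. The log2 fold change of Bmp4 was -1.36 (SE 0.29, adjusted p = 0.00487), a 2.73-fold lower mean. A fall below all 3 undiseased libraries was seen in both models, and the fibroblast and myofibroblast markers rose in both. The part of these cells in the level of Bmp4 was not tested.

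The promoter of Bmp4, the ligand that fell, and that of Grem1, the antagonist that fell in the UUO model, are shown because both genes were lower after obstruction. RefSeq promoter windows were at hand for 6 of the 9 genes. Each window holds the 250 bases before the annotated start, 5′ to 3′ on the gene's strand, from build GRCr8. Bmp4 lies on the minus strand (chr15:22101934-22102183, with this start 11212 bp inside the annotated gene span), and Grem1 also lies on the minus strand (chr3:120978320-120978569). Capitals mark CAGAC (the core Smad-binding element), GGCGCC (a GC-rich site bound by Smad1 and Smad5) and GGGCGG (the GC box bound by Sp1), read on both strands with overlapping matches counted separately.
Bmp4: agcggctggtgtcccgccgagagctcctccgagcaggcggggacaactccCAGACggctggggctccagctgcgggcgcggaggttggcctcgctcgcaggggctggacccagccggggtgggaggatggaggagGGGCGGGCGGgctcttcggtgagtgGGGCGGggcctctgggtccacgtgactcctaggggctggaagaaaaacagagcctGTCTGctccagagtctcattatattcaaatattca
Grem1: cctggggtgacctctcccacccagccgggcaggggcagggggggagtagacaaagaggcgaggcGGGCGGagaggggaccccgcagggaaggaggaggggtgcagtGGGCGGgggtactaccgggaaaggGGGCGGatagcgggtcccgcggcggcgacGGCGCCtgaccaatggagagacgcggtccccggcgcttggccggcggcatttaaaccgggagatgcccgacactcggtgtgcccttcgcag

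The Bmp4 window held 2 CAGAC and 3 GGGCGG matches, and the Grem1 window held 1 GGCGCC and 3 GGGCGG matches. CAGAC occurred in 42.9%, GGCGCC in 8.69% and GGGCGG in 30.5% of the 33469 rat promoter windows of the same length. GC content was 66.4% in the Bmp4 window and 72% in the Grem1 window, beside a median of 51.2% over all windows. A match describes the letters of the window only.

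Bmp2 rose in both models from a low level. Bmp2 is an osteogenic ligand that signals through the same type I receptors as Bmp4. In the control libraries it was at 0.426, 0.379 and 0.442 FPKM, and in the adenine libraries at 1.27, 1.77 and 2.04 FPKM. All adenine libraries were above all control libraries. As a log2 fold change this was 1.78 (SE 0.26, adjusted p = 0.00127), below the threshold for a DEG. Among sham libraries Bmp2 was at 0.522, 0.313 and 0.728 FPKM, and in the UUO libraries at 3.54, 3.38 and 3.19 FPKM. The UUO libraries varied little, and all of them lay far above the highest sham library. The log2 fold change was 2.54 (SE 0.29, adjusted p = 0.000311), with a mean 6.47-fold higher than in the sham group.

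Bmp6, a ligand known for driving hepcidin synthesis in iron balance, also rose in both models. Its FPKM was 1.87, 1.78 and 1.07 in the control libraries and 3.08, 5.31 and 5.56 in the adenine libraries. Adenine replicate 1 was the lowest of its group and still above every control library. This gave a log2 fold change of 1.50 (SE 0.31, adjusted p = 0.00614). In the UUO model Bmp6 went from 1.15, 2.71 and 3.31 FPKM in the sham libraries to 10.6, 13.0 and 13.3 FPKM. The groups lay far apart, although the sham libraries spread 2.88-fold. limma gave a log2 fold change of 2.43 (SE 0.37, adjusted p = 0.00108), a 5.15-fold higher mean.

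For Bmp7 no change passed the test in either model. Its FPKM was 23.2, 18.6 and 20.3 in the control libraries and 16.8, 29.8 and 23.5 in the adenine libraries. The adenine libraries lay on both sides of the control range. The log2 fold change was 0.14 (SE 0.21, adjusted p = 0.595), with a 95% confidence interval from -0.37 to 0.65. In the sham libraries Bmp7 was at 31.7, 32.8 and 34.1 FPKM, and in the UUO libraries at 32.1, 43.2 and 35.1 FPKM. The groups overlapped, and UUO replicate 2 was the highest. As a log2 fold change this was 0.15 (SE 0.12, adjusted p = 0.296), with an interval from -0.14 to 0.44. The direction for Bmp7 turned to -0.15 and -0.45 under median-of-ratios scaling, which removes the shift of all genes, and the UUO value then passed the test (adjusted p = 0.0248). With FPKM rescaled to equal sums the UUO value was 0.38 and also passed, in the opposite direction (adjusted p = 0.0262, 0.0248 to 0.797 over all alternatives). Over the same libraries thick limb and distal tubule markers fell, 3 of 4 after adenine and 4 of 4 after UUO. Their summed level went from 1471 to 1998 FPKM in control kidneys to 149 to 322 FPKM after adenine. In the UUO model it went from 2358 to 2988 FPKM to 103 to 235 FPKM. Collecting duct markers fell as well, 3 of 4 after adenine and 4 of 4 after UUO. Markers of the proximal tubule and of podocytes were mixed. Of 5 proximal tubule markers, Lrp2 and Slc34a1 fell in both models and Slc5a12 rose after adenine. Of 3 podocyte markers, only Podxl was called after adenine, as lower, and only Synpo after UUO, as higher. The part of these cells in the level of Bmp7 was not tested.

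The make-up of the 4 BMP ligand transcripts was different in diseased kidneys. Bmp4 gave 52.0% ± 6.70 of their summed FPKM in control kidneys and 13.6% ± 3.91 after adenine (SD, n = 3). In the sham group it gave 37.0% ± 8.55, and in the UUO group 13.4% ± 1.72. These shares did not overlap in either model. The share of Bmp6 went from 3.35% to 13.5% with adenine and from 3.99% to 20.3% with UUO, and that of Bmp2 from 0.876% to 4.99% and from 0.926% to 5.63%. Bmp7 gave 43.8% in the control group against 67.9% in the adenine group, with no overlap, but 58.1% in the sham group against 60.7% in the UUO group, where the libraries overlapped. The ratio of Bmp7 to Bmp4 was 0.863 ± 0.244 in control kidneys and 5.33 ± 1.75 after adenine, and 1.68 ± 0.720 in sham kidneys and 4.60 ± 0.774 after UUO. The summed ligand level was 45.9 to 50.3 FPKM in control kidneys and 25.8 to 41.0 FPKM after adenine, while 46.1 to 64.1 FPKM in sham kidneys and 54.5 to 67.6 FPKM after UUO overlapped. With 3 libraries against 3, an exact permutation test cannot give a two-sided p below 0.1, and none was run on the shares.

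**Figure D3:**
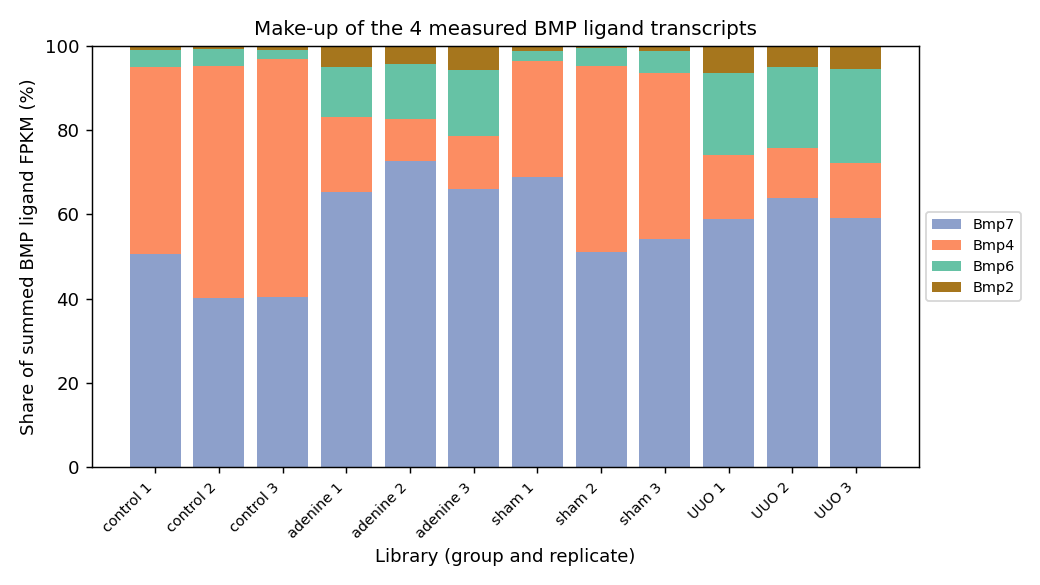
Share of each BMP ligand (percent of the summed FPKM of Bmp2, Bmp4, Bmp6 and Bmp7) in each of the 12 libraries, as stacked bars. Bmp4 takes 27.5% to 56.5% in undiseased libraries and 10.2% to 17.8% in diseased ones, and Bmp6 and Bmp2 widen in both models.

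Inhbb, which encodes the activin beta B subunit, had the largest log2 fold change of the 7 tested members in each model. In the control libraries it was at 0.309, 0.415 and 0.371 FPKM, and in the adenine libraries at 5.40, 5.70 and 4.82 FPKM. No library came near the other group. Expressed as log2, the fold change was 3.54 (SE 0.20, adjusted p = 4.27e-05). Inhbb passed the filter there only through the adenine group, so its place among the tested genes is tied to that group being high. Among sham libraries Inhbb was at 0.696, 0.756 and 0.739 FPKM, and in the UUO libraries at 15.9, 12.5 and 9.85 FPKM. The sham libraries were almost equal, and the UUO libraries spread 1.61-fold. The log2 fold change was 3.93 (SE 0.21, adjusted p = 1.90e-05), with a mean 17.5-fold higher than in the sham group.

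Inhba, which encodes the beta A subunit of activin A and of inhibin A, stayed under 0.5 FPKM in all but 1 library and was not tested. It was at 0.0886, 0.266 and 0.156 FPKM in the control libraries and at 0.0613, 0.219 and 0.388 FPKM in the adenine libraries, and these overlapped. In the sham libraries it was at 0.0496, 0.0001 and 0.0225 FPKM, where 0.0001 is the lowest value the table lists, and in the UUO libraries at 0.293, 1.28 and 0.457 FPKM. All 3 UUO libraries lay above the sham libraries. When every entry was tested without the filter, the log2 fold change was 2.45 (SE 0.53, adjusted p = 0.0264) in the UUO model and 0.17 (SE 0.48, adjusted p = 0.798) in the adenine model. Inhbb made up 69.7% of the summed beta subunit FPKM in the control group and 96.8% in the sham group, and 95.9% and 94.8% in the adenine and UUO groups.

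Among the antagonists, Grem1 fell in the UUO model, and its change in the adenine model did not pass the test. Its FPKM was 10.3, 5.95 and 4.37 in the sham libraries and 2.16, 3.19 and 1.43 in the UUO libraries. The groups did not overlap, though the sham libraries spread 2.36-fold and the UUO libraries 2.23-fold. limma gave a log2 fold change of -1.54 (SE 0.39, adjusted p = 0.0105), a 3.05-fold lower mean, and without the filter on low values the adjusted p was 0.0643 (0.00400 to 0.0643 over all alternatives). In the control libraries Grem1 was at 4.24, 8.58 and 5.97 FPKM, and in the adenine libraries at 4.68, 6.47 and 4.04 FPKM. These overlapped, and the log2 fold change was -0.27 (SE 0.29, adjusted p = 0.452, 95% confidence interval -0.97 to 0.43). The difference between the models was -1.27 (SE 0.49) and did not pass (adjusted p = 0.0682), so Grem1 was not shown to differ between them. Against Bmp7, the ligand that Grem1 is known to restrain in the kidney, the ratio of Grem1 was 0.313 ± 0.141 in control kidneys and 0.222 ± 0.0534 after adenine. It was 0.212 ± 0.102 in sham kidneys and 0.0606 ± 0.0175 after UUO, where no library overlapped. Against Bmp4 the ratio went the other way with adenine, from 0.252 ± 0.0734 in control kidneys to 1.15 ± 0.351, with no overlap. It was 0.177 to 0.814 in sham kidneys and 0.184 to 0.399 after UUO, which overlapped.

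No change of Fst was called in either model, and its level varied widely between undiseased libraries. In the control libraries it was at 0.368, 20.9 and 1.30 FPKM, a 56.6-fold range, and in the adenine libraries at 16.1, 12.6 and 12.8 FPKM. Control replicate 2 was above every adenine library, and the other two control libraries were far below. For Fst this gave a log2 fold change of 2.53 (SE 1.27, adjusted p = 0.127, 95% confidence interval -0.50 to 5.56). Without control replicate 2 it was 4.09 and passed the test (adjusted p = 0.00129, 0.00129 to 0.326 over all alternatives), which raises the members called in the adenine model from 4 to 5 and the DEGs from 2 to 3. Among sham libraries Fst was at 15.0, 14.8 and 1.25 FPKM, and in the UUO libraries at 17.0, 12.7 and 9.11 FPKM. Sham replicate 3 was the low library, and the other two lay within the UUO range. The log2 fold change was 0.91 (SE 0.92, adjusted p = 0.401, 95% confidence interval -1.28 to 3.10), and without sham replicate 3 it was -0.25.

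Control replicate 2 also stood apart in some cell type markers. It was the lowest control library for all 3 podocyte markers measured (Nphs1, Podxl and Synpo), which summed to between 16.9 and 60.4 FPKM over the control libraries, for 4 of 5 proximal tubule markers, for 3 of 4 thick limb and distal tubule markers and for 1 of 4 collecting duct markers. Outside the nephron it was the lowest for all 3 smooth muscle markers, 3 of 4 macrophage markers and 2 of 4 T cell markers. Of 6 fibroblast and myofibroblast markers it was the lowest for 2 and the highest for 3. Of 3 endothelial markers it was the lowest for 1 and the highest for 2. The distal transporter Slc12a3 was at 12.9 FPKM in control replicate 2 against 197 and 164 FPKM. Other markers did not follow, with Slc12a1 of the thick limb (229 against 135 and 160 FPKM), Aqp3 of the collecting duct (59.0 against 31.7 and 30.4 FPKM) and 3 of 4 urothelial markers highest in that library, and Cubn of the proximal tubule between the other two (20.5 against 17.6 and 25.1 FPKM). In the sham group, where Fst was high in replicates 1 and 2, Slc12a3 was at 68.8, 139 and 164 FPKM. The part of these markers in the level of Fst was not tested. The gene whose pattern was most like that of Fst was Wnt7b, a Wnt ligand of the collecting duct, with a Pearson correlation of 0.932 over the 12 libraries after centring each table. Wnt7b was at 0.298, 5.10 and 0.461 FPKM in the control libraries and at 3.64, 2.15 and 0.629 FPKM in the sham libraries, so the same libraries were high for both genes.

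**Figure D4:**
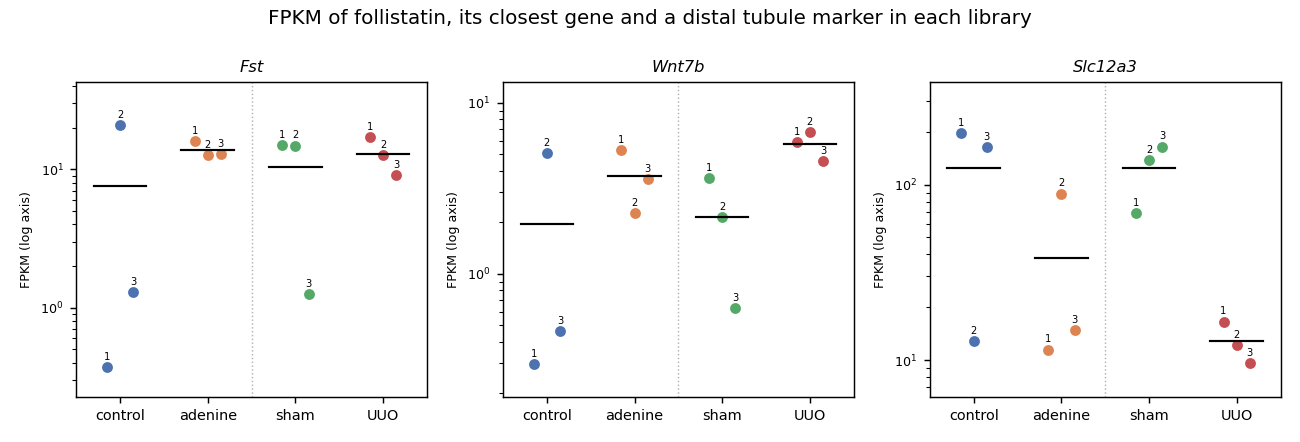
FPKM of Fst, of Wnt7b and of the distal tubule marker Slc12a3 in the 12 libraries on log axes, with points numbered by replicate and a bar at each group mean. Control replicate 2 and sham replicates 1 and 2 are high for Fst and Wnt7b, whereas Slc12a3 is low in control replicate 2 (12.9 FPKM) and is at 68.8 and 139 FPKM in sham replicates 1 and 2.

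Set against the activin subunits, Fst was 11.3 ± 16.7 times the summed FPKM of Inhba and Inhbb in control kidneys and 2.51 ± 0.410 times after adenine. The ratio was 13.8 ± 10.5 in sham kidneys and 0.951 ± 0.0871 after UUO, and here every sham library, the lowest at 1.65, was above every UUO library, the highest at 1.05. The control libraries, from 0.926 to 30.6, overlapped the adenine libraries, from 2.12 to 2.94.

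Nog stayed near the bottom of the measured range and was not tested. It was at 0.0334, 0.172 and 0.535 FPKM in the control libraries and at 0.308, 0.199 and 0.293 FPKM in the adenine libraries. In the sham libraries it was at 0.370, 0.0638 and 0.0701 FPKM, and in the UUO libraries at 0.143, 0.189 and 0.0294 FPKM. The groups overlapped in both models.

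The same genes were then compared between the models by the difference of the log2 fold changes, UUO minus adenine, over the 13486 symbols tested once in both tables. The fall of Bmp4 was smaller in the UUO model, with a difference of 1.08 (SE 0.32, adjusted p = 0.0259), and it was the only 1 of 7 members called, while 27% of all symbols were called. The median difference over all symbols was 0.28. The call for Bmp4 was lost with median-of-ratios scaling (difference 0.78, adjusted p = 0.121), without the filter (0.0582), and without UUO replicate 1, 2 or 3 in turn (0.0620, 0.0555 and 0.0520), and the adjusted p ran from 0.0130 to 0.121 over all alternatives. The differences for Bmp2 (0.76, 95% confidence interval -0.07 to 1.60), Bmp6 (0.93, -0.11 to 1.98), Inhbb (0.38, -0.23 to 1.00), Bmp7 (0.01, -0.52 to 0.54) and Fst (-1.62, -4.99 to 1.75) did not pass, and that of Bmp7 took either sign with the scaling. Some passed under another setting, namely Bmp2 (0.61, adjusted p = 0.0335, 0.0335 to 0.402 over all alternatives) and Inhbb (0.76, adjusted p = 0.0163, 0.0163 to 0.877) with a pseudocount of 1, and Fst without control replicate 2 (-3.19, adjusted p = 0.0410, 0.0410 to 0.840). On simulated data a larger share of the calls of this test was false than its threshold allows.

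For each tested member the genes with the most similar profile were listed among 12101 symbols, as a description of 12 libraries that share their groups. Inhbb ran closest with Timp1, the tissue inhibitor of metalloproteinases, at a correlation of 0.999. Timp1 was at 5.88, 8.41 and 8.04 FPKM in the control libraries and at 147, 179 and 149 FPKM in the adenine libraries, and it went from 5.20 to 6.79 FPKM in the sham libraries to 124 to 191 FPKM in the UUO libraries. The UUO libraries stood in the same order for both genes, and the adenine libraries did not. Bmp2 ran closest with Cpz, a carboxypeptidase that binds Wnt proteins (0.994), Bmp6 with Dsc2, a desmosomal cadherin (0.981), and Bmp4 with Sil1, a nucleotide exchange factor of the endoplasmic reticulum (0.984). For Bmp7 and Grem1 the closest genes were Agtrap (0.881) and Mrpl2 (0.931).

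The rest of the pathway was taken from a list of 51 other genes, of which 36 were tested in each table. In the adenine model 9 rose and 7 fell, and in the UUO model 21 rose and 5 fell. Over all tested entries, 39.6% rose and 19.9% fell after adenine, and 56.1% rose and 14.4% fell after UUO. The same shares stand beside the counts of each list below. The median of the pathway genes was 0.13 on the log2 scale after adenine and 0.84 after UUO, beside 0.30 and 0.62 over all tested entries. Among the 35 symbols tested in both, the difference between the models was called for 14, of which 13 were higher in the UUO model and 1, Bmpr1b, was lower. Over all symbols the calls leaned the same way, with 21.7% higher and 5.25% lower after UUO. Under median-of-ratios scaling the call was lost for 6 of the 14 (Acvr2a, Fstl1, Gdf11, Id1, Smad1 and Smad6).

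Of 14 other ligands, 3 were tested in the adenine model and none was called. In the UUO model 4 were tested, Gdf6 and Gdf11 rose and Bmp3 fell. Gdf6, a ligand of joint and eye development, was at or below 0.0283 FPKM in the sham libraries and at 0.947, 0.955 and 1.14 FPKM in the UUO libraries, and it passed the filter only through the UUO group. Its log2 fold change was 3.31 (SE 0.33, adjusted p = 0.00016). Bmp3, which acts against osteogenic BMPs, fell from 3.55, 3.72 and 5.18 FPKM to 1.16, 1.15 and 1.93 FPKM (log2 fold change -1.51, SE 0.27, adjusted p = 0.00216). In the adenine model its log2 fold change was -0.97 (SE 0.42, adjusted p = 0.0834). It passed there with median-of-ratios scaling (-1.25, adjusted p = 0.0379, 0.0379 to 0.215 over all alternatives).

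Of the 12 receptors and co-receptors, 12 were tested in the adenine model, where Acvrl1, Rgma and Rgmb rose and Acvr2a fell. In the UUO model 11 were tested, 7 rose and Bmpr1b fell, beside 56.1% higher and 14.4% lower over all tested entries. Rgma, a co-receptor for Bmp2 and Bmp4, rose from 0.737 to 1.26 FPKM to 3.00 to 4.23 FPKM in the adenine model (log2 fold change 1.77, SE 0.25, adjusted p = 0.00113). After UUO it rose from 0.975 to 1.16 FPKM to 6.34 to 7.52 FPKM (log2 fold change 2.60, SE 0.16, adjusted p = 3.12e-05). The endothelial receptor pair Acvrl1 and Eng, named after their values were seen, had log2 fold changes of 1.68 (SE 0.15) and 1.72 (SE 0.09) in the UUO model and of 0.69 (SE 0.15) and 0.24 (SE 0.13) in the adenine model, and all but the last passed the test. Acvrl1 lost its call after adenine with median-of-ratios scaling (0.39, adjusted p = 0.0560), and Eng gained one there with equal FPKM sums (0.51, adjusted p = 0.0148). Their differences between the models, 0.99 and 1.48, passed as well (adjusted p = 0.00438 and 0.000103). The 3 endothelial markers measured did not move as one. Cdh5 rose in both models (log2 fold change 0.84, adjusted p = 0.0206, after adenine and 2.48, adjusted p = 0.000201, after UUO), Emcn fell after adenine (-1.79, adjusted p = 0.000284) and was at 0.27 after UUO (adjusted p = 0.0541), and Kdr passed in neither model. Their summed level, mostly Emcn in undiseased kidneys, was 60.7 to 80.5 FPKM in sham kidneys and 104 to 125 FPKM after UUO, and 58.8 to 67.2 FPKM in control kidneys and 21.9 to 32.4 FPKM after adenine. The part of endothelial cells in these changes was not tested. Bmpr1b, a type I receptor, fell in the UUO model from 2.98, 3.25 and 4.51 FPKM to 1.27, 1.73 and 1.91 FPKM (log2 fold change -1.08, SE 0.24, adjusted p = 0.00605).

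Of 12 other antagonists and modulators, 9 were tested in each model. In the adenine model Fstl1 and Fstl3 rose and Chrd, Sostdc1 and Bambi fell, and in the UUO model Nbl1, Twsg1, Fstl1 and Fstl3 rose and Sostdc1 and Bambi fell. Sostdc1, a BMP antagonist of the distal tubule, was at 72.3, 73.8 and 72.3 FPKM in the control libraries and at 29.8, 30.0 and 25.8 FPKM in the adenine libraries. It went from 113, 131 and 105 FPKM to 40.8, 27.0 and 37.9 FPKM in the UUO model. The libraries of each group were close together, and the log2 fold changes were -1.35 (SE 0.10, adjusted p = 8.56e-05) and -1.73 (SE 0.17, adjusted p = 0.000167). Chrd, which encodes the BMP antagonist chordin, fell in the adenine model from 21.1, 29.4 and 29.0 FPKM to 5.23, 7.15 and 9.39 FPKM (log2 fold change -1.88, SE 0.24, adjusted p = 0.000735). After UUO its libraries overlapped (log2 fold change -0.18, SE 0.22, adjusted p = 0.485). It passed as lower there with median-of-ratios scaling (-0.77, adjusted p = 0.0193) and without sham replicate 2 (-0.43, adjusted p = 0.0221), and was at 0.04 with equal FPKM sums (0.0193 to 0.960 over all alternatives). For Chrd the difference between the models was 1.70 (SE 0.32, adjusted p = 0.00271). Bambi, a receptor-like inhibitor of the family, had log2 fold changes of -1.60 (SE 0.19) and -0.51 (SE 0.12). Fstl3, a follistatin relative that binds activins, was at 0.860 to 1.55 FPKM in control kidneys and 4.62 to 5.40 FPKM after adenine, and at 0.954 to 1.79 FPKM in sham kidneys and 7.22 to 11.4 FPKM after UUO. Its log2 fold changes were 1.99 (SE 0.24, adjusted p = 0.000555) and 2.79 (SE 0.28, adjusted p = 0.000178), while no change of Fst itself was called. Fstl1, a secreted glycoprotein of mesenchymal cells, had log2 fold changes of 1.87 (SE 0.18) and 2.71 (SE 0.10).

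Of the 6 Smads, which carry the signal to the nucleus, 5 were tested in each model and Smad9 was not. Smad1, Smad5, Smad3 and Smad4 rose in both models, and Smad2 rose in the UUO model. The log2 fold changes of Smad1 and Smad5, which respond to BMPs, were 0.90 (SE 0.13) and 1.19 (SE 0.13) after adenine, and 1.66 (SE 0.13) and 1.08 (SE 0.11) after UUO. For Smad2, which responds to activins and TGF-beta, they were 0.50 (SE 0.20, adjusted p = 0.0711) and 1.01 (SE 0.11, adjusted p = 0.000226). Smad2 passed after adenine in 3 of 12 alternatives (adjusted p 0.0124 to 0.422 over all). These were equal FPKM sums (0.77, adjusted p = 0.0124), the replicate block (adjusted p = 0.0482) and leaving out control replicate 2 (0.63, adjusted p = 0.0416). The summed Smad level was 36.0 to 37.0 FPKM in control kidneys and 63.4 to 75.0 FPKM after adenine, and 48.8 to 52.1 FPKM in sham kidneys and 116 to 124 FPKM after UUO.

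All 7 genes known as transcriptional targets of BMP signalling were tested, and they did not move one way. In the adenine model Id1, Id4 and Smad6 fell and none rose, and in the UUO model Id3, Smad7 and Atoh8 rose and Id4 fell. The call for Atoh8 (log2 fold change 0.57, adjusted p = 0.0368) was lost in 7 of 12 alternatives (0.0104 to 0.987 over all), among them median-of-ratios scaling, where that for Smad7 was lost too (0.35, adjusted p = 0.0602). The Id genes encode inhibitors of basic helix-loop-helix factors. Id4 was at 32.3, 60.1 and 70.2 FPKM in the control libraries and at 4.37, 5.91 and 5.52 FPKM in the adenine libraries. Among sham libraries it was at 69.5, 27.4 and 26.5 FPKM, and in the UUO libraries at 6.87, 7.02 and 8.20 FPKM. Every diseased library was below every undiseased library of its table, and the log2 fold changes were -3.28 (SE 0.30, adjusted p = 0.000192) and -2.32 (SE 0.36, adjusted p = 0.00126). Id1 went from 26.2, 35.6 and 46.7 FPKM to 17.2, 17.5 and 20.5 FPKM in the adenine model (log2 fold change -0.94, SE 0.21, adjusted p = 0.00842). After UUO its log2 fold change was 0.06 (SE 0.11, adjusted p = 0.659). Under median-of-ratios scaling it turned to -0.54 and passed the test (adjusted p = 0.00777, the lowest over all alternatives). Id3 rose in the UUO model from 34.6, 34.1 and 28.9 FPKM to 102, 92.0 and 106 FPKM (log2 fold change 1.62, SE 0.10, adjusted p = 3.45e-05), and its log2 fold change in the adenine model was 0.30 (SE 0.21, adjusted p = 0.252). Smad6, an inhibitory Smad, fell from 2.86, 3.27 and 6.08 FPKM to 0.726, 1.69 and 1.41 FPKM in the adenine model (log2 fold change -1.60, SE 0.40, adjusted p = 0.0121), and its libraries overlapped in the UUO model.

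**Figure D5:**
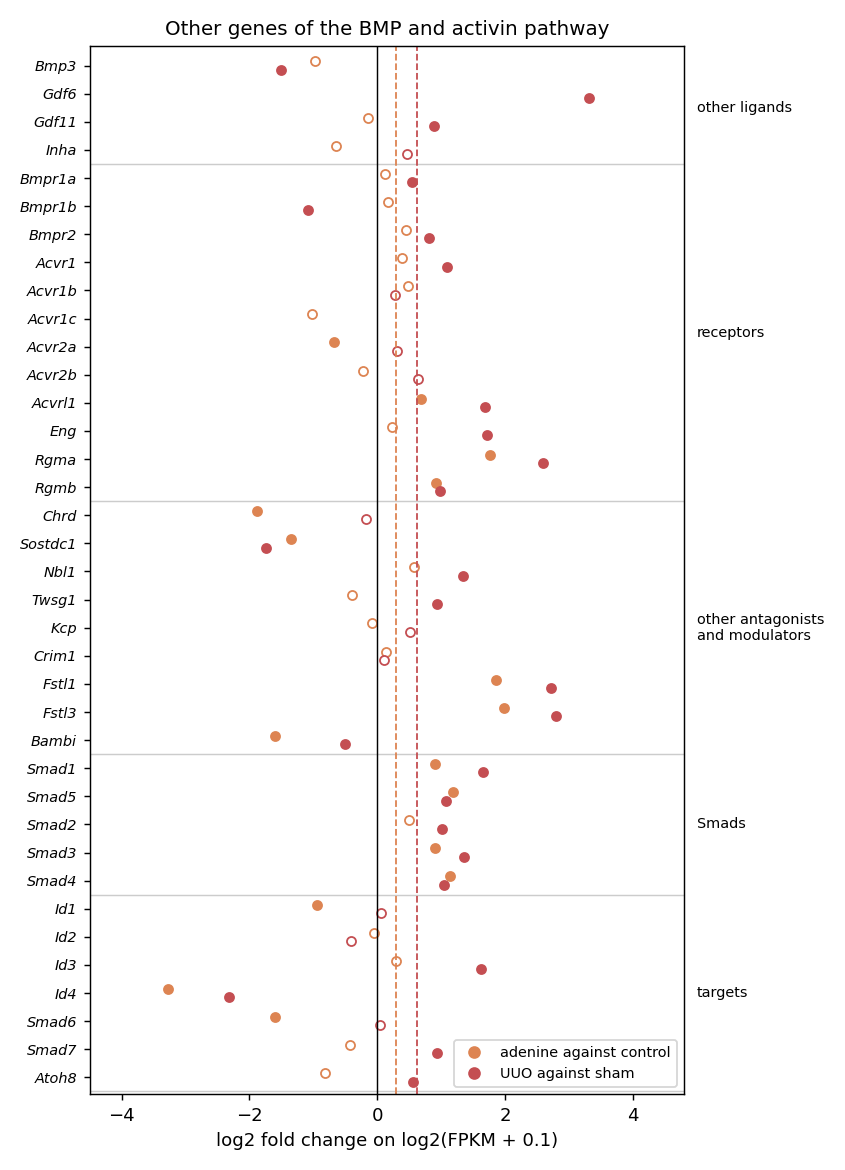
Log2 fold changes of the tested pathway genes outside the 9 members, grouped by role, in the adenine model (orange) and the UUO model (red), on the log2(FPKM + 0.1) scale; filled points have an adjusted p under 0.05 and dashed lines mark the medians over all tested entries (0.30 and 0.62). Smads lie to the right in both models, Id4 and Sostdc1 to the left in both, and Chrd, Id1 and Smad6 to the left in the adenine model.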

How the data were processed

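RNA of 12 rat kidneys was sequenced from poly(A) RNA with a strand-marking kit. The authors deposited FPKM values per gene, with the adenine model and the UUO model in separate tables. Their processing notes name cutadapt 1.9, HISAT2 2.0.4, StringTie 1.3.4d, edgeR and DESeq2, and the genome build is not given in the sources used here. Depth is not known, since low values did not share a ratio between libraries, so precision rests on 3 rats per group.

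The scale was log2(FPKM + 0.1), which understates changes of low genes, and entries entered the fit if 3 or more of the 6 samples reached 0.5 FPKM. Each table was fitted with limma 3.58.1 (lmFit, eBayes with a trend) in R 4.3.3, with Benjamini-Hochberg adjustment over the whole table. The difference between the models was divided by the root of the summed squared standard errors and referred to a t distribution with the degrees of freedom added. The thresholds were an adjusted p under 0.05 and, for DEGs, a log2 fold change of 2 or more in either direction. Figures and other steps used Python 3.11.15, numpy 2.4.6, pandas 2.3.3 and scipy 1.17.1.

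Samples were grouped by their labels, which do not state that replicate numbers pair the rats. The members, gene lists and tests were chosen with earlier results of these data known. Pathway genes were named if they were DEGs or among the first 4 others of their list, and further ones (Acvrl1, Eng, Rgmb, Gdf11, Acvr2a, Bambi, Nbl1, Twsg1, Smad3, Smad4, Smad7, Atoh8) after their values were seen. Likeness was the Pearson correlation over libraries after centring each table. Alternatives were other pseudocounts, no filter, 2 scalings, a replicate block and each library left out. Of the genes on these lists, 2 are not reported here and are left out of the lists' counts and sums.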

Additional observations from a re-analysis of the deposited data

Results flagged for a closer look

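The effects of the 2 models differed, by the test of the difference between their log2 fold changes (UUO minus adenine), for Bmp4 among the members, at 1.08. Bmp4 fell in both models, and less so after obstruction. Among the other pathway genes the difference was 0.99 for Acvr2a, 0.99 for Acvrl1 and 1.48 for Eng among the receptors, and -1.25 for Bmpr1b, the single gene that was lower in the UUO model. It was 1.70 for Chrd, 1.33 for Twsg1, 1.09 for Bambi and 0.85 for Fstl1 among the antagonists and modulators, and 1.03 for the ligand Gdf11. It was 0.76 for Smad1, 1.64 for Smad6, 1.37 for Smad7, 1.00 for Id1 and 1.32 for Id3. These values stand beside a median of 0.28 over all symbols, of which 27% were called. On simulated data a larger share of the calls of this test was false than its threshold allows. Kidneys were collected after 3 weeks in the adenine model and after 2 weeks in the UUO model, so insult and time cannot be told apart. Without the filter the call was lost for Bmp4 (adjusted p = 0.0582). With median-of-ratios scaling the call was lost for Bmp4 (adjusted p = 0.121), Smad1 (0.120), Smad6 (0.0621), Id1 (0.0711), Acvr2a (0.0942), Gdf11 (0.0546) and Fstl1 (0.101). Leaving out 1 library ended it for Bmp4 (UUO replicates 1, 2 or 3), for Bmpr1b (control replicate 2, adenine replicates 1 or 3, sham replicate 3 or UUO replicate 1, adjusted p 0.0563 to 0.0734), for Acvr2a (sham replicate 2 or UUO replicate 3, 0.0538 and 0.0654) and for Smad6 (control replicate 3 or adenine replicate 1, 0.0570 and 0.0538).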

How the results depend on the processing

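The precision of every value is limited by 3 rats per group, and the number of reads is not known. Bmp2, Bmp4, Bmp6 and Inhbb kept their direction and an adjusted p under 0.05 in both models under all 12 alternatives. The DEG calls of Bmp4 (adenine) and Inhbb (both models) also held under all 12, but those of Bmp2 and Bmp6 in the UUO model did not: 2 members were DEGs there with a pseudocount of 1, with median-of-ratios scaling (Inhbb and Grem1) and without sham replicate 1, and 4, Inhba included, without the filter. In the adenine model 3 were DEGs with equal FPKM sums (Bmp2 added) and without control replicate 2 (Fst added). Among the pathway genes named, median-of-ratios scaling also ended the UUO calls of Twsg1 (0.34), Rgmb (0.39) and Gdf11 (0.30) and made Twsg1 (-0.68) and Smad7 (-0.71) lower after adenine, and equal FPKM sums ended those of Bambi (UUO, -0.29) and Acvr2a (adenine, -0.42) and made Nbl1 higher after adenine (0.85), as did leaving out control replicate 3 (0.81). A pseudocount of 1 lowered the DEGs over all entries from 2360 to 1320 in the adenine model and from 2613 to 1465 in the UUO model, and the share of DEGs that were higher was 68.0% and 75.8%, against 57.8% and 56.7% with median-of-ratios scaling and 76.3% and 81.5% with equal FPKM sums. With median-of-ratios scaling the medians over all entries were 0.013 and 0.033, and the sign turned for Bmp7 (-0.15 adenine, -0.45 UUO, difference -0.29), for Eng (-0.054) and Bmpr1b (-0.11) in the adenine model, and for Acvr2a (-0.28), Id1 (-0.54), Smad6 (-0.53) and Atoh8 (-0.0044) in the UUO model. With equal FPKM sums it turned for Gdf11 (0.12, adenine), Chrd (0.044, UUO) and the difference of Bmp7 (-0.035). Leaving out each library in turn gave both signs for Bmp7 (-0.052 to 0.36) and Bmpr1b (-0.034 to 0.39) in the adenine model, for Fst (-0.25 to 1.49), Id1 (-0.017 to 0.14) and Smad6 (-0.15 to 0.22) in the UUO model, and for the difference of Bmp7 (-0.21 to 0.20). The cause was not tested.

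The deviations of same-numbered libraries correlated at -0.12 to -0.05 in the adenine model and at 0.05 to 0.11 in the UUO model. In the UUO model each library correlated best with its own number, beside -0.08 to 0.02 for other numbers. The labels give no pairing, and whether the rats of that model were paired was not tested. With the replicate number as a block, 2352 and 2609 DEGs were called, no member changed its call within a table, and the difference of Grem1 passed at -1.27 (adjusted p = 0.0296, 0.0296 to 0.156 over all alternatives). The Grem1 difference also passed with median-of-ratios scaling and without control replicate 2, sham replicate 3 or UUO replicate 2.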
